A study of Mus musculus with 6 samples.

Results

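The genes examined here are 42 genes of the unfolded protein response, of the ATF4 pathway and of amino acid supply, taken from a list of gene symbols. All 42 were measured, out of 19938 gene symbols on the arrays, and each is represented by the array row with the highest mean for its symbol. They comprise 10 stress sensors and transcription factors, 4 feedback regulators, 6 enzymes of serine, one-carbon and asparagine synthesis, 8 amino acid transporters, the lipoprotein receptor gene Vldlr, 4 genes of endoplasmic reticulum (ER)-associated degradation and 9 ER chaperones and foldases. Levels were compared between N2A (neuro 2A) cells, a mouse neuroblastoma cell line, transfected with a Pou3f3 knockdown construct and N2A cells transfected with a non-targeting vector. Pou3f3 encodes a POU-domain transcription factor. Each of the 6 cultures received 1.5 ug of a short hairpin RNA (shRNA) construct by transient transfection. Total RNA was taken about 2.5 days later, as the authors' methods give a range of times. There were 3 arrays for each condition, described as biological replicates of a single cell line, and the tests rest on the variation among transfected cultures, which may be technical. No selection of transfected cells is described, and the knockdown group received 1 kind of construct. Values are log2 array intensities, listed from replicate 1 to replicate 3 where they are given by array, and every difference is knockdown minus control on this scale.

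Proteins that fail to fold in the ER are sensed by IRE1 (the product of Ern1), by ATF6 and by the kinase PERK. IRE1 splices the mRNA of Xbp1, and the XBP1 and ATF6 proteins raise the transcription of chaperones and of the degradation machinery. PERK phosphorylates the initiation factor eIF2, as do related kinases that respond to amino acid shortage and other stresses. General translation is then lowered, while translation of the Atf4 mRNA is favoured, and ATF4 activates genes for amino acid synthesis and uptake as well as Ddit3, Trib3 and Ppp1r15a. Arrays of this kind measure mRNA, and neither splicing of Xbp1 nor translation of Atf4 was measured.

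Promoters of genes of these pathways often carry short sequences through which the response is known to act, and some of those found are shown beside the genes that the results describe. The search used no array values, but the genes shown were chosen with their differences known. RefSeq promoter windows (assembly GRCm38.p6, 250 bases before to 50 bases after each start) were found for 35 of the 42 genes, in 39 windows. Both strands were searched for 4 motifs. The ER stress response element (ERSE) was searched as CCAAT followed by CCACG with 9 bases between them. It was present in 5 of the 39 windows (12.8%), those of the chaperone genes Calr, Canx, Creld2 and Pdia6 and of the ubiquitin ligase gene Syvn1, against 0.119% of all 32851 windows in the table. These windows are shown around the motif, 5′ to 3′ along the strand of the gene, with the ERSE or its reverse complement in capitals.
Calr, chr8:84847055-84847113 (minus strand): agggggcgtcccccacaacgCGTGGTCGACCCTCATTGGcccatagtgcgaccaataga
Canx, chr11:50325780-50325838 (minus strand): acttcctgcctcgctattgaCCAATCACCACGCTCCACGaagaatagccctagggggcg
Creld2, chr15:88819500-88819558 (plus strand): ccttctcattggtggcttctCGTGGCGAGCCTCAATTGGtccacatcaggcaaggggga
Pdia6, chr12:17266471-17266529 (plus strand): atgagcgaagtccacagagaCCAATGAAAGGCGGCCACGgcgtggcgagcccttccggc
Syvn1, chr19:6046512-6046570 (plus strand): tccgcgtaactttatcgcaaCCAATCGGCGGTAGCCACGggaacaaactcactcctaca
The C/EBP-ATF response element (CARE), to which ATF4 binds with C/EBP partners, was searched as TGATGNAA. It was present in 9 of the 39 windows (23.1%) and in 3.97% of all windows. The 9 genes were Asns, Atf3, Chac1, Herpud1, Nupr1, Slc1a4, Slc7a11, Trib3 and Vldlr. Of these, 4 are shown with the motif in capitals: Asns, which is the classical target of amino acid shortage, Chac1 and Nupr1, which are described below with opposite directions, and Slc7a11, which carries the CARE on both strands.
Asns, chr6:7693210-7693252 (minus strand): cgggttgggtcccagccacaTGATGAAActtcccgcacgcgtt
Chac1, chr2:119351029-119351076 (plus strand): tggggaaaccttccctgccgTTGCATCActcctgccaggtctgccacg
Nupr1, chr7:126625553-126625600 (minus strand): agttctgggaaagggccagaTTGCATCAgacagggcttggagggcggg
Slc7a11, chr3:50443633-50443699 (minus strand): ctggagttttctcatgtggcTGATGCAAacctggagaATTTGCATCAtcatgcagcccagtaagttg
In Slc7a11 the capitals on the right also hold the octamer ATGCAAAT, the sequence bound by POU-domain proteins, on the opposite strand, where it overlaps a CARE. This was the only one of the 39 windows with an octamer (2.56%, against 1.74% of all windows). The XBP1 element TGACGTGG was present in 0 of the 39 windows and in 0.676% of all windows. None of the 4 motifs was present in the windows of 21 genes, which included Cebpg and Ppp1r15a, the pair of genes with the largest differences. The last 60 bases before their starts are shown, with no capitals.
Cebpg, chr7:35056567-35056626 (minus strand): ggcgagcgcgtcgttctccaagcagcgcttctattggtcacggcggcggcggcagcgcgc
Ppp1r15a, chr7:45526269-45526328 (minus strand): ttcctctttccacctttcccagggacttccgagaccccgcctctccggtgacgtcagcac
A match is a run of letters and not a measured binding site. Only exact letters within the windows were sought, so a window without a match does not show that the gene lacks such an element.

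Facts of the whole data set bear on these genes as follows. Pou3f3 itself measured 8.37, 8.30 and 8.47 in the control arrays and 8.20, 8.09 and 8.35 in the knockdown arrays. The knockdown array was the lower within each number but the groups overlapped, with a difference of -0.16 (95% confidence interval -0.35 to 0.02, limma adjusted p = 0.303, or 0.0880 when that number was a block). The exact two-sided permutation p was 0.2, and the smallest that this design allows is 0.1. The lowering of the target on these arrays, 10.8% on the linear scale, therefore did not exceed the spread between arrays in the unblocked fit. The authors report a larger lowering of Pou3f3 by quantitative PCR, which is a different measure. The arrays are named by their labels. Of 12 sympathoadrenal neuroblastoma markers 10 were measured, at 8.23 to 13.9. Of these 1, Dbh, was called lower, with a difference of -1.17 (limma adjusted p = 0.00471). With the block Th was called lower as well, with a difference of -0.38 (limma adjusted p = 0.0420, or 0.133 without the block). Gata3 and Chga were lower by less than 1.3-fold, with differences of -0.33 and -0.35 (limma adjusted p = 0.0484 and 0.0628). With the block and without a fold cutoff, 5 of the 10 markers were lower at an adjusted p under 0.1 and 0 were higher. Among all rows the shares at this threshold were 10.7% lower and 12.3% higher. Of 25 markers of astrocytes, Schwann cells, fibroblasts, endothelial cells, macrophages and muscle, 23 were measured at 4.78 to 9.24. Their median difference was -0.09, and 1 of them, Des, was called higher, by 0.39. With the block and without a fold cutoff, 3 of the 23 were higher and 3 lower at an adjusted p under 0.1. The part of these markers in the results below was not tested. In both groups the arrays numbered 1 stood apart from those numbered 2 and 3, and arrays of the same number deviated together. Numbers 2 and 3 were little separated from each other (correlations of 0.307 and 0.289 within a number, 0.254 and 0.216 across). The pairing was thus read from these same data, and blocked values are given where they alter a result.

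In the median and size of their differences the 42 genes lay close to the rest of the array. Their differences ran from -0.32 to 0.43, with a median of -0.05 against -0.03 over all 21789 rows with 1 gene symbol, and 16 lay above 0 and 26 below. The median size of a difference, 0.10, was also near that of all rows, 0.0982. In the highest of 10 classes of rows by mean intensity, which held 27 of the genes, the median difference over all rows was 0.01. Of the 42 genes, 45.2% were lower in all 3 same-numbered pairs of arrays, against 29.1% of all rows. Calls required a limma adjusted p under 0.1 together with a 1.3-fold difference or more. Of the 42, 1 gene was called higher (2.38%, against 1.3% of all rows) and 0 were called lower (against 0.684%). At an unadjusted p under 0.05, without a fold cutoff, there were 5 higher and 5 lower (11.9% each, against 9.66% and 10.2% of all rows), which is near the background. The gene called was Ppp1r15a, which encodes the stress-induced subunit that directs phosphatase 1 to phosphorylated eIF2. When the replicate number was entered as a block, 2 genes were called higher (4.76%, against 1.74% of all rows), Ppp1r15a and the ATF4 partner Cebpg, and 0 lower (against 0.757%). Since RNA was taken from whole cultures, a response in fewer cells and a smaller response in each cell cannot be told apart.

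**Figure D1:**
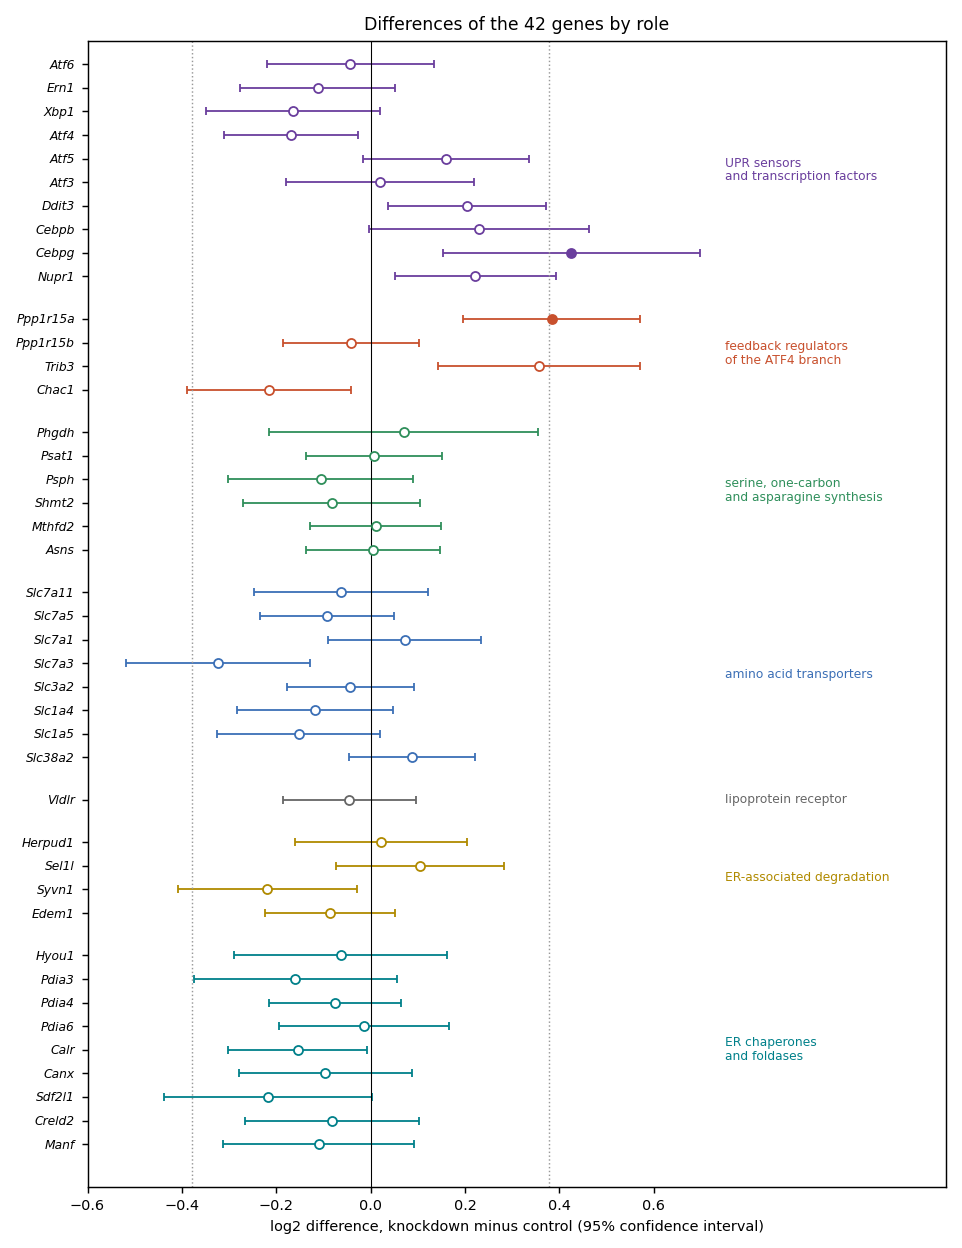
Differences of the 42 genes (horizontal axis, log2, knockdown minus control) with 95% confidence intervals from limma without the block, grouped by role; filled points were called with or without the replicate block, open points in neither, and dotted lines mark 1.3-fold. Cebpg and Ppp1r15a are filled, at 0.43 and 0.38, and all 9 ER chaperones and foldases lie below 0.

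Below the fold cutoff, the blocked fit placed more of the genes apart. At an adjusted p under 0.1 with the block and without the fold cutoff there were 7 genes higher (16.7%, against 12.3% of all rows), which were Atf5, Ddit3, Cebpb, Cebpg, Nupr1, Ppp1r15a and Trib3. There were 6 genes lower (14.3%, against 10.7%), which were Xbp1, Atf4, Chac1, Slc7a3, Syvn1 and Sdf2l1. The control and knockdown arrays did not overlap for 8 genes that were higher (19.0%, against 10.9% of all rows) and for 9 that were lower (21.4%, against 15.1%). These shares are modestly above those of all rows, which in a set of 42 amounts to few genes. Neither this excess nor the spread over roles given next was tested. The higher genes were all transcription factors, feedback regulators or, for Slc38a2, a transporter, while the lower ones came from every role except serine, one-carbon and asparagine synthesis and the lipoprotein receptor. In 29 of the 42 genes the adjusted p was 0.1 or more in both fits.

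Among the 10 sensors and transcription factors, 6 lay above 0 and 4 below, with a median of 0.09. Cebpg, whose product pairs with ATF4 on CARE sequences, was 10.96, 10.64 and 10.64 in control replicates and 11.40, 11.09 and 11.03 in knockdown replicates. Every knockdown array lay above every control array, and replicate 1 was the highest in both groups. The mean went from 10.75 ± 0.19 to 11.17 ± 0.20 (SD, n = 3), a difference of 0.43 (SE 0.12, 1.34-fold, limma adjusted p = 0.118). This missed the threshold without the block. The differences within same-numbered pairs were 0.44, 0.45 and 0.38, and with the block Cebpg rose (95% confidence interval 0.30 to 0.55, limma adjusted p = 0.00313). On leaving out 1 array at a time it was called in 1 of 6 cases, without control replicate 1, with a difference of 0.53 (limma adjusted p = 0.0465). With the variance filter on rows with 1 symbol its limma adjusted p was 0.0303. That filter keeps rows by their variance over all 6 arrays, which includes the difference between the groups. The value is therefore no separate support, and with the filter on all rows Cebpg was not called.

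The genes described next were not called, and they were chosen for description by array after their values had been seen, as were Atf4, Xbp1, Trib3, Chac1, Slc38a2 and Asns. Ddit3, which encodes the pro-apoptotic factor CHOP, was 11.31, 11.41 and 11.52 in control replicates and 11.59, 11.57 and 11.68 in knockdown replicates. The groups were apart by a small gap and the difference was 0.20 (limma adjusted p = 0.184, or 0.0511 with the block). Nupr1, a stress-induced chromatin-associated protein downstream of ATF4, was 11.39, 11.30 and 11.25 in control replicates and 11.64, 11.44 and 11.52 in knockdown replicates. Its lowest knockdown value, in replicate 2, lay just above its highest control value, and the difference was 0.22 (limma adjusted p = 0.165, or 0.0397 with the block). Cebpb, a further C/EBP factor, was 8.73, 9.12 and 9.12 in control replicates and 9.20, 9.21 and 9.25 in knockdown replicates. Much of its difference of 0.23 came from control replicate 1, since the pair differences were 0.47, 0.09 and 0.13. Atf5, a relative of Atf4 that is also translated under stress, differed by 0.16 (limma adjusted p = 0.290, or 0.0972 with the block).

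Atf4, the factor at the centre of the pathway, lay on the other side of 0. It was 11.87, 11.90 and 11.96 in control replicates and 11.76, 11.70 and 11.76 in knockdown replicates. All knockdown arrays were below all control arrays, by -0.17 on average (95% confidence interval -0.31 to -0.03, limma adjusted p = 0.192, or 0.0836 with the block). Xbp1 was 13.16, 13.33 and 13.38 in control replicates and 13.02, 13.21 and 13.13 in knockdown replicates. Its groups overlapped and the difference was -0.16 (limma adjusted p = 0.295, or 0.0942 with the block). The sensor genes Ern1 and Atf6 differed by -0.11 and -0.04, and Atf3, a repressor induced by ATF4, by 0.02, with adjusted p-values of 0.410, 0.780 and 0.918 in limma. The sign of Atf3 was turned to -0.025 by cyclic loess normalisation. Genes downstream of ATF4 lay on both sides of 0, as Ddit3, Nupr1 and Trib3 were above it, Chac1 was below it like Atf4, and Asns, Psat1 and Mthfd2 were near it.

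**Figure D2:**
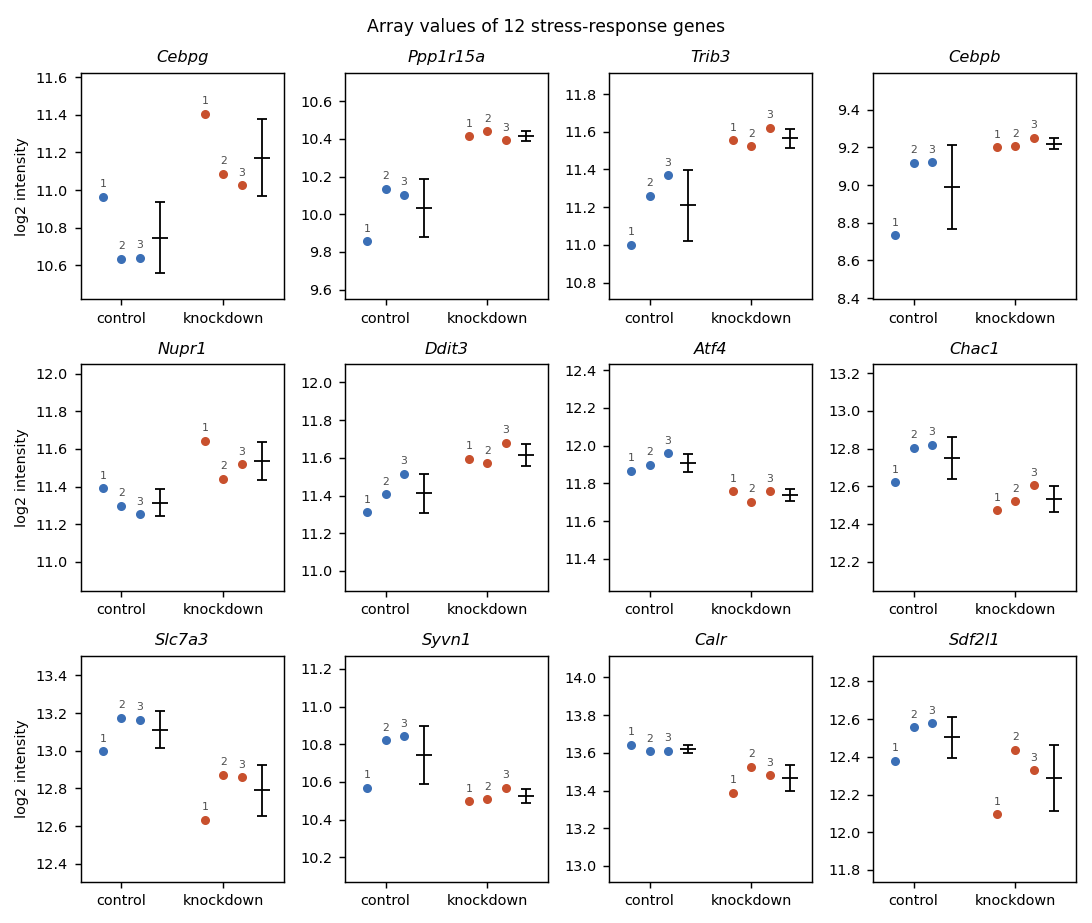
Log2 intensities (vertical axes, each panel with its own position but the same span) of 12 of the genes in the 3 control arrays (blue) and the 3 knockdown arrays (red); numbers are replicate numbers and bars are means ± SD (n = 3). The groups are apart in all panels except Syvn1 and Sdf2l1. Control replicate 1 is the lowest control array in all panels except Cebpg, Nupr1 and Calr, where it is the highest.

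The feedback regulators held the only call made without the block. Ppp1r15a was 9.86, 10.14 and 10.10 in control replicates and 10.41, 10.44 and 10.39 in knockdown replicates. The knockdown arrays lay close together and all above the controls, of which replicate 1 was the lowest. Ppp1r15a rose by 0.38 (SE 0.08, 95% confidence interval 0.20 to 0.57), from 10.03 ± 0.15 to 10.42 ± 0.02 (SD, n = 3), with a limma adjusted p of 0.0592, or 0.00924 with the block. The pair differences were 0.56, 0.30 and 0.29. The call was lost on leaving out any 1 of the 6 arrays (differences of 0.30 to 0.44, limma adjusted p = 0.0748 to 0.192). It was also lost when the variance filter of the methods was applied to all rows (limma adjusted p = 0.327) or when all rows were tested, listed or not (limma adjusted p = 0.187). With cyclic loess normalisation the difference was 0.33, below the fold cutoff.

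Trib3, a pseudokinase that restrains ATF4 and CHOP, was 11.00, 11.26 and 11.37 in control replicates and 11.55, 11.52 and 11.62 in knockdown replicates. Its groups were apart and its pair differences were 0.55, 0.26 and 0.25. The difference of 0.36 (SE 0.09, 1.28-fold, limma adjusted p = 0.0998, or 0.0150 with the block) stayed below the fold cutoff. Chac1, which degrades glutathione and is induced by ATF4 and CHOP, lay on the other side of 0. It was 12.62, 12.81 and 12.82 in control replicates and 12.47, 12.52 and 12.61 in knockdown replicates. The groups were apart by a narrow margin, with a difference of -0.22 (limma adjusted p = 0.178, or 0.0435 with the block). Ppp1r15b, the constitutive counterpart of Ppp1r15a, differed by -0.04 (limma adjusted p = 0.735), and by -0.12 in its second row (limma adjusted p = 0.512).

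The 6 enzymes of serine, one-carbon and asparagine synthesis, which are standard targets of ATF4, lay near 0, from -0.11 to 0.07, with a median of 0.01 and 4 above 0. Asns, which makes asparagine, was 14.38, 14.29 and 14.32 in control replicates and 14.36, 14.29 and 14.34 in knockdown replicates. The arrays of the 2 groups were interleaved, and the interval of the difference, -0.14 to 0.15, excluded a change of 1.3-fold in measured intensity. These values lay near the highest of all deposited values, 14.89. Whether intensity follows the mRNA fully at that level was not tested, so a change in mRNA was not excluded. Psph, which catalyses the last step of serine synthesis, had the largest difference of the group, -0.11 (limma adjusted p = 0.509, or 0.250 with the block). It was 11.08, 11.22 and 11.24 in control replicates and 10.91, 11.18 and 11.13 in knockdown replicates, with replicate 1 lowest in both. Phgdh and Psat1, which catalyse the preceding steps, differed by 0.07 and 0.01, and the mitochondrial one-carbon enzymes Shmt2 and Mthfd2 by -0.08 and 0.01. No limma adjusted p in this group was below 0.509, or below 0.250 with the block.

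Of the 8 amino acid transporters 6 lay below 0, with a median of -0.08. Slc7a3, a transporter of arginine and other cationic amino acids, showed the largest lowering among all 42 genes. It was 13.00, 13.18 and 13.16 in control replicates and 12.63, 12.87 and 12.86 in knockdown replicates, so that the groups were apart and replicate 1 was the lowest in each. The difference was -0.32 (SE 0.09, 1.25-fold, 95% confidence interval -0.52 to -0.13, limma adjusted p = 0.1004, or 0.00882 with the block), and the pair differences were -0.36, -0.30 and -0.30. It stayed below the fold cutoff in both fits, and it was called only on leaving out control replicate 1 (-0.38, limma adjusted p = 0.0708). Slc7a1, its relative with the same kind of substrate, differed by 0.07 (limma adjusted p = 0.589). Whether these transporters differed from each other was not tested. The large neutral transporter Slc7a5 and its partner chain Slc3a2 differed by -0.09 and -0.04, the cystine transporter Slc7a11 by -0.06, and the neutral transporters Slc1a4 and Slc1a5 by -0.12 and -0.15. Slc38a2, a transporter induced when amino acids are short, was 13.59, 13.61 and 13.59 in control replicates and 13.69, 13.67 and 13.69 in knockdown replicates. These arrays were closely spaced and did not overlap, but the difference was 0.09 (limma adjusted p = 0.434). Vldlr, a lipoprotein receptor induced by ATF4, was 6.948, 6.997 and 6.973 in control replicates and 6.986, 6.894 and 6.903 in knockdown replicates. Its groups overlapped, and its difference of -0.04 (limma adjusted p = 0.708) was turned to 0.032 by cyclic loess normalisation.

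For ER-associated degradation, 2 genes lay above 0 and 2 below. Syvn1, the ubiquitin ligase of the degradation channel and one of the 5 genes with an ERSE shown above, was 10.57, 10.82 and 10.84 in control replicates and 10.50, 10.51 and 10.57 in knockdown replicates. The groups met at control replicate 1 and knockdown replicate 3. The difference was -0.22 (95% confidence interval -0.41 to -0.03, limma adjusted p = 0.202, or 0.0567 with the block). Its adaptor Sel1l differed by 0.10, Herpud1, which organises the channel, by 0.02 and Edem1, a lectin that selects misfolded glycoproteins, by -0.09.

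All 9 ER chaperones and foldases lay below 0, from -0.22 to -0.01, with a median of -0.10, and none was called. With median-centred and cyclic loess values all 9 stayed below 0, but the count did not hold when arrays were left out. Hyou1 was at 0.034 without knockdown replicate 1, and Pdia6 was above 0 without control replicate 1 (0.044), control replicate 3 (0.0050) or knockdown replicate 2 (0.0033). In the pair numbered 2, Hyou1, Pdia6 and Creld2 were above 0. Calr, a lectin chaperone with an ERSE, was 13.64, 13.61 and 13.61 in control replicates and 13.39, 13.53 and 13.48 in knockdown replicates. The controls were tightly grouped and above every knockdown array, with a difference of -0.15 (95% confidence interval -0.30 to -0.01, limma adjusted p = 0.234, or 0.120 with the block). Sdf2l1, a co-factor of the ER chaperone BiP, was 12.38, 12.56 and 12.58 in control replicates and 12.10, 12.44 and 12.33 in knockdown replicates. Its groups overlapped, with a difference of -0.22 (limma adjusted p = 0.257, or 0.0456 with the block). The membrane-bound lectin chaperone Canx differed by -0.10, and the disulphide isomerases Pdia3, Pdia4 and Pdia6 by -0.16, -0.08 and -0.01. The large chaperone gene Hyou1 differed by -0.06, Creld2, a disulphide isomerase-like protein, by -0.08 and Manf, a secreted ER stress factor, by -0.11. The second row of Pdia4 differed by 0.06.

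**Figure D3:**
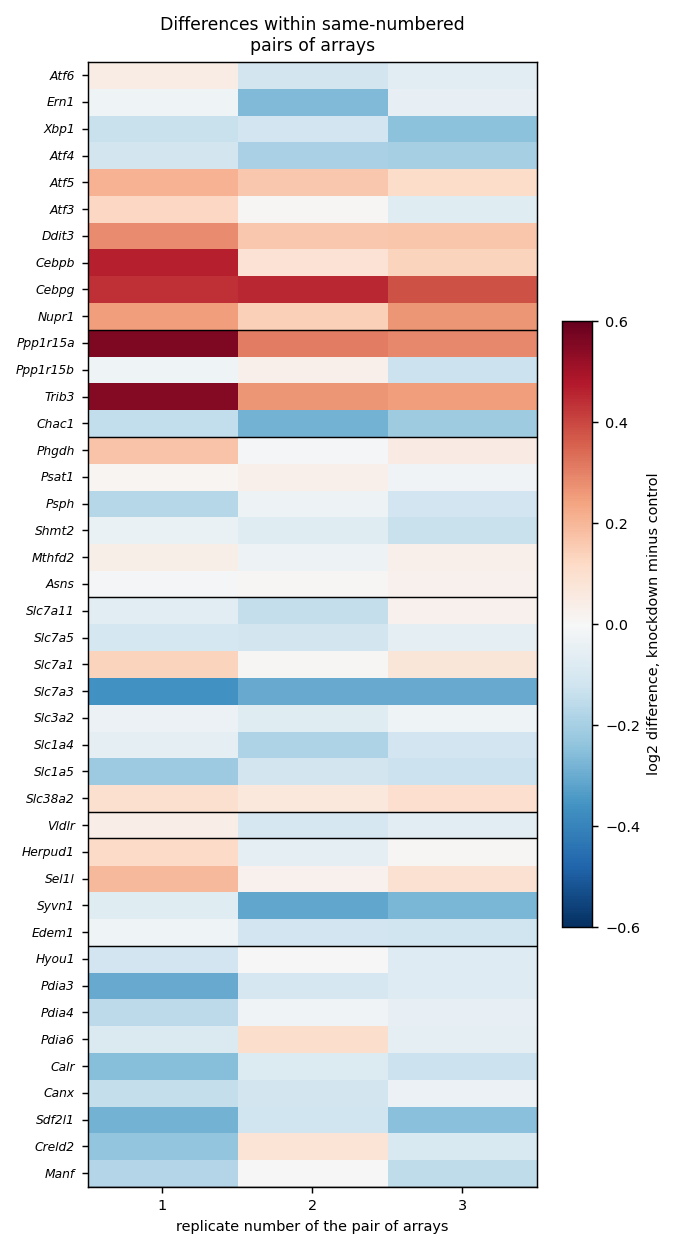
Differences (colour, log2, knockdown minus control) within the 3 pairs of arrays of the same replicate number, for the 42 genes in the order of their roles. Of the 42 genes, 10 are higher in all 3 pairs (23.8%, the same share as of all rows) and 19 are lower in all 3 (45.2%, against 29.1% of all rows), and Cebpg differs by 0.38 to 0.45 across the pairs.

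Set against the promoter sequences, the 5 genes with an ERSE all lay below 0, from -0.22 (Syvn1) to -0.01 (Pdia6, which was above 0 when some arrays were left out), with a median of -0.10. Below 0 were also 26 of the 42 genes and 12526 of the 21789 rows. All ERSE genes but Syvn1 belong to the 9 chaperones and foldases, which all lay below 0. Of the others in that role, Pdia3, Pdia4 and Sdf2l1 had a window without an exact match, and Hyou1 and Manf had no window to search. Motif and role therefore cannot be told apart here. The 9 genes with a CARE were divided, 5 above and 4 below, from -0.22 (Chac1) to 0.36 (Trib3), with a median of 0.01. The 21 genes without any of the 4 motifs had 11 above and 10 below, with a median of 0.01, and included both genes called with the block. The 7 genes without a window in the table all lay below 0. Nupr1 and Chac1, shown above with the same CARE letters, thus had differences of 0.22 and -0.22, and Asns 0.01. Most of the 42 genes were strongly expressed: 27 belonged to the highest of 10 equal classes of rows by mean intensity, where the median difference over all rows was 0.01. The plot of all named rows shows them at the right, within the spread of rows of similar intensity.

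**Figure D4:**
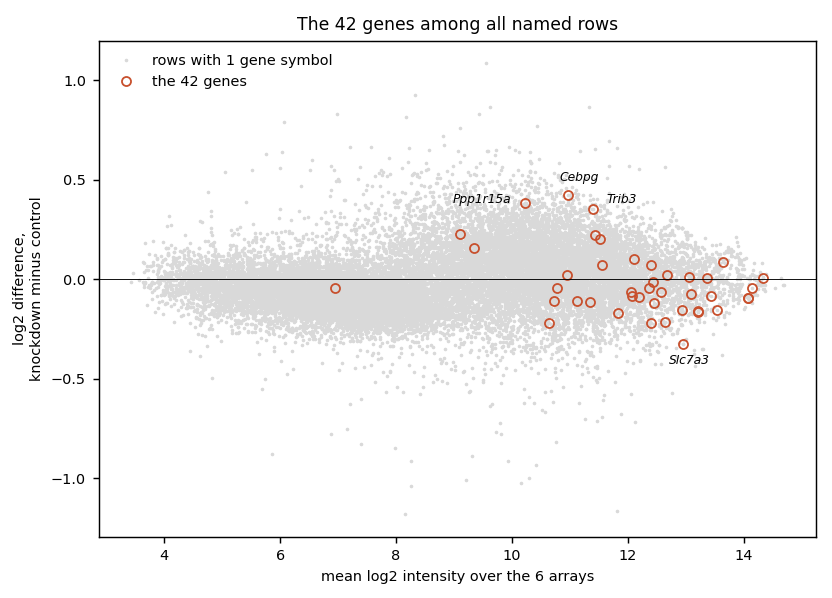
Mean log2 intensity over the 6 arrays (horizontal axis) against the log2 difference, knockdown minus control (vertical axis), for 21789 rows with 1 gene symbol (grey) and for the 42 genes (red circles). The 42 genes span -0.32 to 0.43, inside a cloud of rows that spans -1.18 to 1.09.

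Other genes of the same pathways were described from 6 further lists, of which 116 of 128 genes were measured. Of these, 2 were called higher and 1 lower with and without the block. Among all rows, 1.3% were called higher and 0.684% lower, or 1.74% and 0.757% with the block, so these few calls are near the background. Of 13 further sensors, eIF2 kinases and processing factors, 0 were called and the median was -0.02. Traf2, an adaptor of IRE1, had the largest difference of these, 0.30 (limma adjusted p = 0.191, or 0.0164 with the block). Eif2ak3, which encodes PERK, and Eif2ak4, the kinase that senses uncharged tRNA, were named after their values were seen and differed by 0.03 and -0.02. Of 23 further ER chaperones and degradation genes 19 lay below 0, with a median of -0.12, and 1 was called. Hspa5, which encodes the main ER chaperone BiP, differed by -0.12 (limma adjusted p = 0.379), a value also looked up afterwards. The called gene, Sec61b, a subunit of the channel through which proteins enter the ER, was 10.42, 10.41 and 10.84 in control replicates and 10.13, 10.18 and 10.02 in knockdown replicates. The groups were apart, although control replicate 3 stood above the other controls. Sec61b fell by 0.44 (SE 0.11, limma adjusted p = 0.0898, or 0.0234 with the block), and its other 2 rows differed by -0.42 each. Its call was lost on leaving out any 1 array other than control replicate 1 (limma adjusted p = 0.132 to 0.217).

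Of 18 cytosolic aminoacyl-tRNA synthetases 13 lay above 0, with a median of 0.05, and 0 were called. Yars had the largest difference, 0.23 (limma adjusted p = 0.137). Of 24 further amino acid and one-carbon enzymes, with a median of 0.00, 1 was called. Mthfd2l, a mitochondrial relative of Mthfd2, was 9.17, 9.25 and 9.30 in control replicates and 10.02, 9.96 and 9.68 in knockdown replicates. All knockdown arrays were well above the controls, and Mthfd2l rose by 0.65 (SE 0.10, limma adjusted p = 0.0187), whereas Mthfd2 differed by 0.01. Whether these paralogues differed from each other was not tested. Of 19 further amino acid transporters 0 were called, with a median of -0.06. The largest difference was that of Slc43a1, a transporter of large neutral amino acids, 0.34 (limma adjusted p = 0.0730), which was below the fold cutoff. Of 19 further targets of ATF4 and CHOP, with a median of -0.01, 1 was called. Rab32, a small GTPase of ER and mitochondrial membranes, was 8.92, 8.86 and 8.95 in control replicates and 9.38, 9.30 and 9.22 in knockdown replicates. The groups were clearly apart, and Rab32 rose by 0.39 (SE 0.07, limma adjusted p = 0.0311). Its call was lost without control replicate 2 or knockdown replicate 2 (limma adjusted p = 0.148 and 0.124), and without knockdown replicate 1 its difference of 0.35 was below the fold cutoff. With the variance filter on all rows Sec61b, Mthfd2l and Rab32 were not called (limma adjusted p = 0.340, 0.221 and 0.309), nor were they when all rows were tested (0.247, 0.121 and 0.133).

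**Figure D5:**
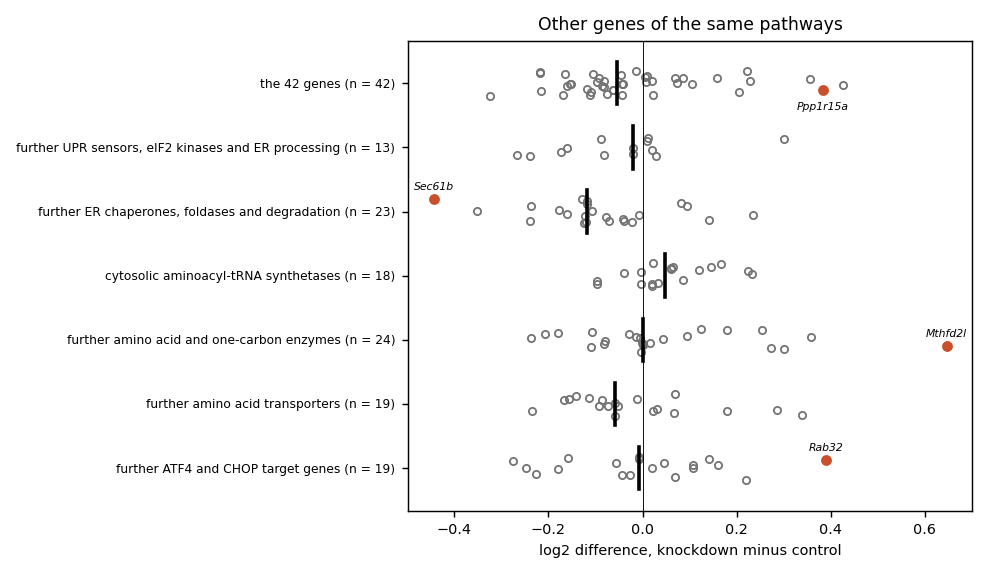
Differences (horizontal axis, log2, knockdown minus control) of the 42 genes and of 116 further genes in 6 lists; points are genes, black bars are medians and filled points were called without the block. Sec61b is filled on the lower side at -0.44, and Ppp1r15a, Rab32 and Mthfd2l on the higher side at 0.38, 0.39 and 0.65.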

How the data were processed

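Gene-level values of 6 arrays (Affymetrix GeneChip Mouse Gene ST) were analysed. The authors corrected the background by RMA, quantile normalised the arrays and summarised probes by gene, and the deposited values are log2 intensities from 3.16 to 14.89. RMA and limma are named, without versions, in the submitters' processing notes. Quantile normalisation hides a shift shared by most transcripts, and with 3 arrays a group the precision is limited. Gene names came from the annotation of the platform. It gave 1 symbol for 21789 of 35556 rows, several for 1621 and no entry for 12146.

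The 21789 rows were fitted without a variance filter in limma 3.58.1 (R 4.3.3; lmFit, eBayes) with Benjamini-Hochberg adjustment over all of them. The variance filter of the methods (cutoff 0.5, read here as a quantile) was an alternative. Members, lists, this choice of rows and the sequences shown were chosen with earlier results of these data known. All members are named. Array values are given for called members and, by role, for those with the largest difference and the lowest p, and for others chosen after their values were seen. In the further lists, called genes or the largest difference are named. Gene positions follow RefSeq (GRCm38.p6). The procedure was run on simulated data with known differences and independent arrays. No deviation shared by arrays of the same number was simulated, so that run cannot judge either fit where such deviations exist.

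Replicate numbers come from the labels. Deviations from group means correlated between same-numbered arrays at 0.638, 0.307 and 0.289, so the number was taken to pair the arrays, and a fit with it as a block stands beside the main one. Between unlike numbers the correlation was 0.254 for control 2 with knockdown 3 and 0.216 for control 3 with knockdown 2, and negative for the other 4 combinations.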

Additional observations from a re-analysis of the deposited data

How the results depend on the processing

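Among the 42 genes, the 1 called higher became 2 with the replicate block, 2 with the variance filter on rows with 1 symbol and 2 without the fold cutoff. It became 0 with cyclic loess normalisation, with the variance filter on all rows, with all rows and no filter, and at an adjusted p under 0.05. Leaving out 1 array, or both arrays of a number (chosen after seeing the data), gave 0 to 1 higher and 0 to 1 lower. The median difference of -0.05 became -0.085 with the variance filter on rows with 1 symbol, which kept fewer of the genes, and was -0.06 to -0.04 on leaving out 1 array. Over all rows, the 284 higher and 149 lower became 2 and 10 with the variance filter on all rows, 10 and 18 with all rows, and 579 and 390 without the fold cutoff, and the 284 became 173 at an adjusted p under 0.05. Leaving out 1 array gave 67 to 392 higher and 80 to 219 lower, and leaving out a pair gave 0 to 370 and 1 to 205. Without replicate 3 they were 0 and 1. In the further lists, the 2 higher and 1 lower became 0 and 0 with the variance filter on all rows and with all rows, and 4 and 4 without the fold cutoff. The 1 lower became 2 with cyclic loess and 0 at an adjusted p under 0.05. Leaving out arrays or pairs gave 0 to 2 higher and 0 to 2 lower. Centring arrays on their medians, testing only rows above the median level, averaging the rows of a symbol, and eBayes with trend and robust changed no call of the 42 genes. The replicate block changed no other call of the 42 genes or of the further lists. The causes of these shifts were not tested beyond the number of rows and arrays used.

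A change of sign occurred in 11 of the 42 genes, all with a difference of at most 0.07 in size, and in 31 it did not. Cyclic loess gave Atf3 -0.025 and Vldlr 0.032. On leaving out 1 array or a pair, values ran from -0.103 to 0.022 for Atf6, -0.064 to 0.078 for Atf3, -0.078 to 0.0020 for Ppp1r15b, -0.073 to 0.162 for Phgdh, -0.017 to 0.035 for Psat1, -0.010 to 0.031 for Mthfd2, -0.014 to 0.030 for Asns, -0.053 to 0.064 for Herpud1, -0.134 to 0.034 for Hyou1 and -0.090 to 0.044 for Pdia6.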
